A study of Canis lupus familiaris with 21 samples.

Results

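Epidermal keratinocyte and desmosome genes were followed through canine cutaneous histiocytoma (CCH), a skin tumor of Langerhans-like dendritic cells that usually regresses on its own. The genes were 45 of the 21399 in the count tables, chosen by name, and all 45 were found once and matched to the RefSeq annotation of the German Shepherd assembly UU_Cfam_GSD_1.0. By known site of expression, 12 were basal, 21 suprabasal or cornified and 12 belonged to no single layer. By role, 11 were keratins, 12 desmosomal genes, 5 genes that anchor cells to the basement membrane, 8 genes of the cornified envelope and barrier, 6 regulators and 3 genes of other junctions.

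RNA came from formalin-fixed, paraffin-embedded tumors of privately owned dogs and was counted by QuantSeq 3′ sequencing, in which a read marks the 3′ end of a transcript. Group 1 held 5 stage 1 tumors, a stage defined under the microscope by the absence of lymphocytes (ages given from 0.5 to 5 years, 1 not given). Group 2a held tumor cell-rich areas of 5 stage 2 tumors (0.6 to 3 years) and group 2b lymphocyte-rich areas of stage 2 tumors in 6 samples (0.3 to 6 years), of which 4 were pools from 3 or 4 dogs and 2 came from 1 dog each. Group 3 held lymphocyte-rich samples of 5 stage 3 tumors (1.5 to 9 years), a stage in which lymphocytes reach the tumor center. The labels name no treatment of the dogs. Areas of stage 2 were punched out of the blocks, and no punch is described for stages 1 and 3. Stage and way of sampling therefore cannot be told apart. Per the paper, adjacent tissue and ulcerated surfaces were taken off every sample, and tumors were included only where hair follicles were absent. The share of RNA fragments over 200 nucleotides (DV200) was 64.5% to 71.2% in group 1, 70.5% to 76.6% in group 2a, 72.5% to 76.9% in group 2b and 71.2% to 75.8% in group 3. Each sample had 2113393 to 3559404 reads counted on genes.

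The tissue label was checked against marker lists. ITGB2 (CD18), a leukocyte integrin, had 1741 to 3551 normalized counts over the 21 samples, AIF1 299 to 807 and CDH1 (E-cadherin, which Langerhans cells and keratinocytes share) 14.9 to 331, so none of these 3 was near 0. Of the other 9 Langerhans and myeloid genes, CD1A6 (CD1a) was at 0 in 18 of 21 samples, FLT3 and LYZ were at 0 in 1 sample each, and the remaining 6 were above 0 in every sample. CD3D, a T cell receptor component, was lowest at 5.67 in a sample of group 1. MS4A1 (CD20) was at 0 in 12 of 21 samples, including every sample of groups 1 and 2a, and the melanocyte gene PMEL was at 0 in 14.

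In the epidermis, basal keratinocytes are tied to the basement membrane by hemidesmosomes and make the keratin pair KRT5 and KRT14. As they move up they switch to KRT1 and KRT10, and then build a cornified envelope from plakins and involucrin. Desmosomes join neighbouring keratinocytes through cadherins (desmogleins and desmocollins), which the plaque proteins JUP, DSP and the plakophilins link to keratin filaments. CCH grows in the dermis beneath the epidermis, and Langerhans cells are not known to form desmosomes.

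Several of the genes sit side by side in the genome. The 6 desmosomal cadherins lie on chromosome 7 from 57958817 to 58438756, the 5 type I keratins on chromosome 9 from 21031467 to 21819078 and the 6 type II keratins on chromosome 27 from 43769282 to 44252170. Neighbouring keratins are close in sequence, and the counting of reads that match several genes is not given in the sources used here, so the split between paralogs is uncertain.

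The keratinocyte genes varied widely within each group. The 45 genes together took 0.0771% to 0.711% of all normalized counts in group 1, 0.0652% to 0.206% in group 2a, 0.0326% to 0.175% in group 2b and 0.066% to 0.483% in group 3. The groups overlapped in this share. In group 2a replicate 3 the 45 genes summed to 1597 normalized counts, and to 272 without ITGA6, DST, CLDN1 and KRT10. These sums were 781 and 224 in group 2b replicate 3, and 19930 and 14320 in group 1 replicate 4. In bulk tissue, the number of keratinocytes, the RNA per keratinocyte and reads of these genes from other cells cannot be told apart.

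**Figure D1:**
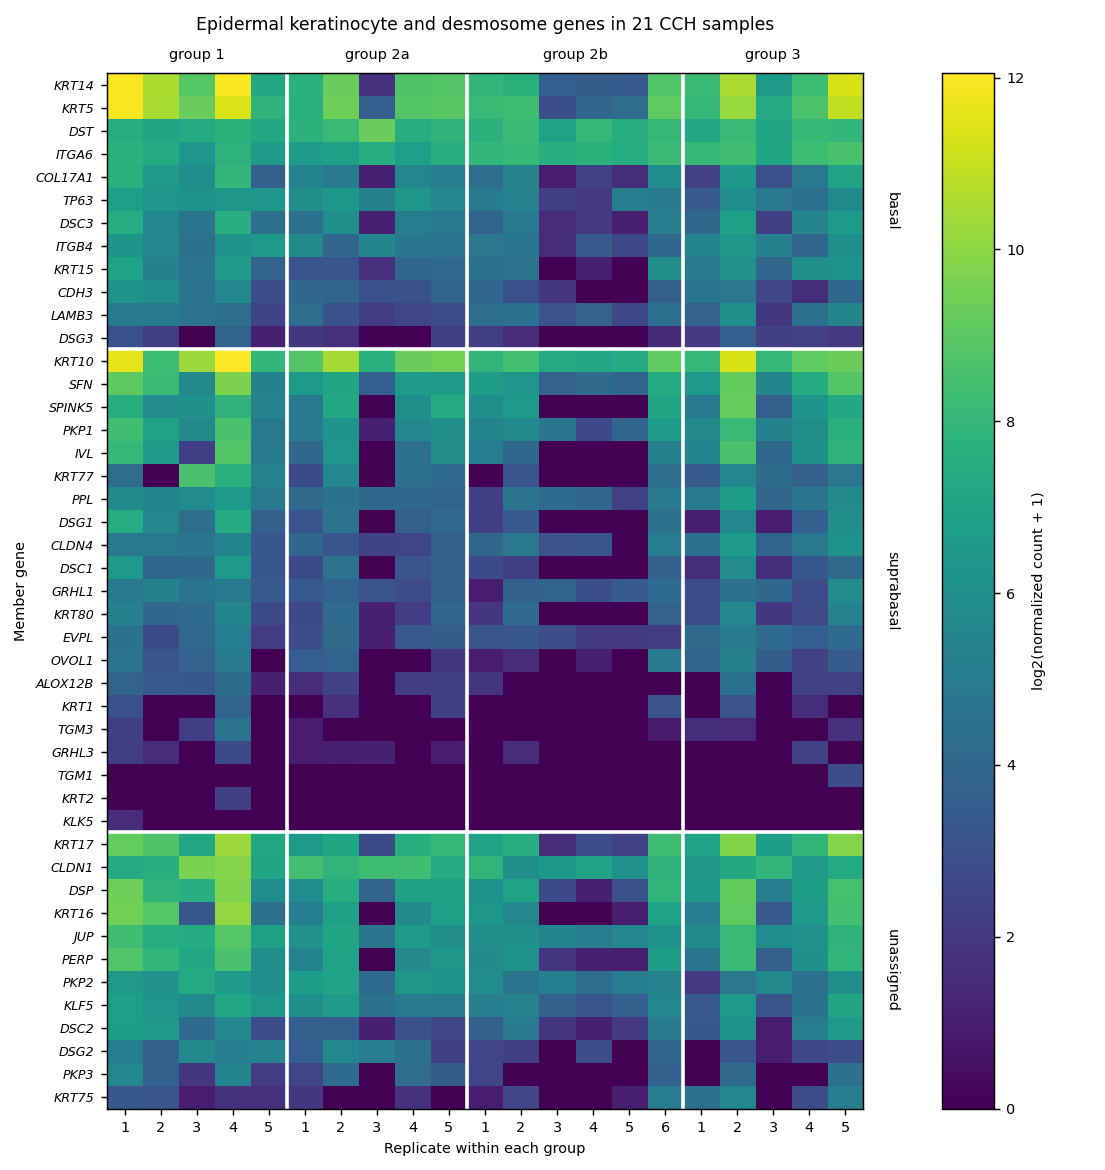
Heat map of log2(normalized count + 1) for the 45 genes (rows, ordered within each layer by mean) in the 21 samples (columns, by group and replicate). Dark columns at group 2a replicate 3 and group 2b replicates 3, 4 and 5 show samples with few keratin reads, in which DST, ITGA6, KRT10 and CLDN1 stay bright.

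A set of 4 samples stood apart in the keratins and was looked at because of it, namely group 2a replicate 3 and group 2b replicates 3, 4 and 5, the last 3 being pools of 4 dogs each. KRT14 had 2.22 normalized counts in group 2a replicate 3 and 11.2, 10.6 and 10.1 in these 3 pools. In these 4 samples, 22 of the 45 genes had at most 3 reads in each, which was treated as close to 0, and 13 of these had no read in any of the 4. Another 11 genes stayed above 3 reads in all 4, namely KRT5, KRT10, JUP, PKP2, ITGA6, DST, PPL, SFN, GRHL1, KLF5 and CLDN1. At the other end, group 1 replicates 1 and 4 held the highest value of 11 and 18 of the 45 genes.

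KRT14, the type I keratin of basal cells, had 3866, 1532, 468, 3852 and 154 normalized counts in group 1. Its values were 209, 632, 2.22, 429 and 457 in group 2a. They ran from 10.1 through a median of 111 to 441 in group 2b and were 303, 1488, 95.1, 315 and 2536 in group 3. All groups overlapped. The highest value was 25.1 times the lowest within group 1, 285 times within group 2a, 43.9 times within group 2b and 26.7 times within group 3.

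KRT5, the partner of KRT14 (chromosome 27, 44078715 to 44085082), followed it closely. Over the 21 samples, Pearson's r between the 2 genes on the log2(normalized count + 1) scale was 0.984, and it was 0.977 after each group's mean was removed. Samples share depth and tissue makeup, so the correlations given here describe these libraries only. Of the 36 other genes that reached 10 reads in 5 or more samples, 18 had an r of at least 0.8 with KRT14, among them PERP, a desmosomal membrane protein (0.978), DSC3 (0.957), KRT16 (0.956), KRT17 (0.954) and SFN (0.952). The 18 held basal, suprabasal and cornified genes alike.

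The label fitted 5 genes less well, whose r with KRT14 was under 0.5: DST (-0.199), ITGA6 (0.177), CLDN1 (0.326), DSG2 (0.381) and PKP2 (0.414). ITGA6, the α6 integrin of hemidesmosomes, which is also made outside the epidermis, had 80.2 to 219 normalized counts in group 1, 98.3 to 193 in group 2a, 178 to 309 in group 2b and 141 to 388 in group 3. ITGB4, its partner in hemidesmosomes, had an r of 0.589 with KRT14.

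**Figure D2:**
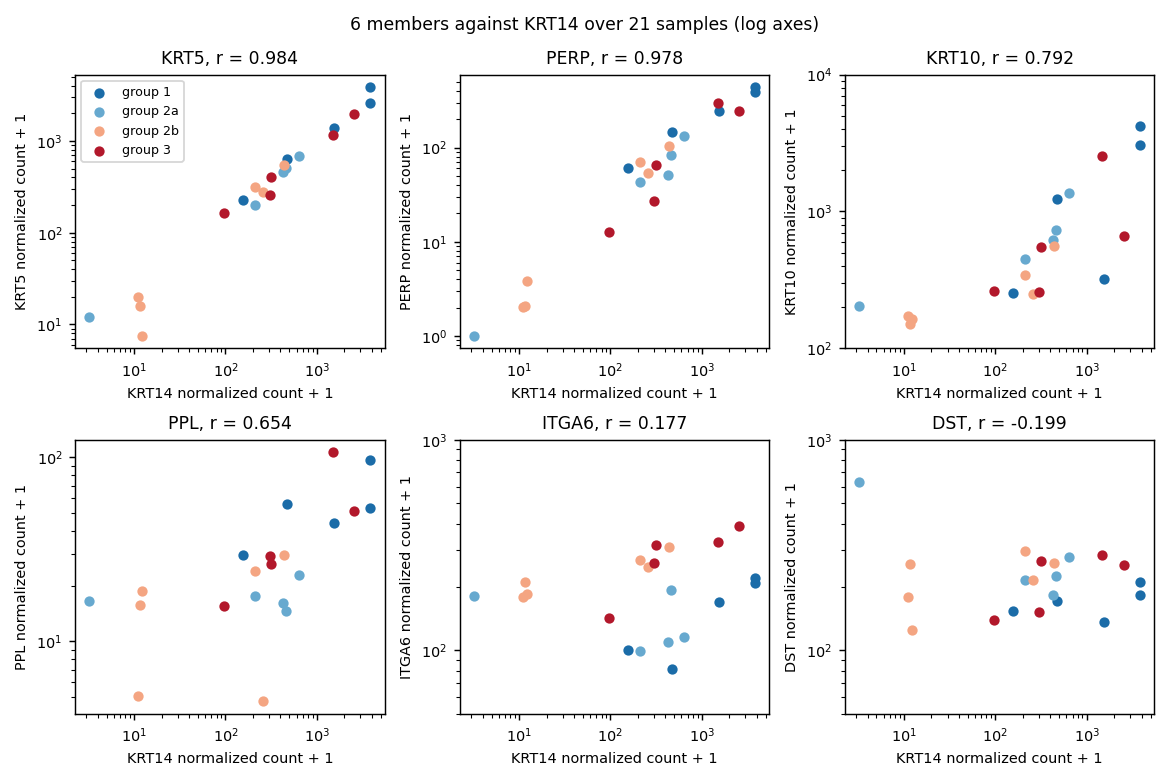
Scatter plots of 6 genes against KRT14, 1 point per sample, both axes log-scaled normalized counts plus 1 and colors marking the groups. KRT5 and PERP run along a line with KRT14 (r = 0.984 and 0.978), KRT10 flattens at low KRT14, and ITGA6 and DST show no such line (r = 0.177 and -0.199).

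KRT10, the suprabasal type I keratin (chromosome 9, 21814216 to 21819078), had 3066, 320, 1221, 4241 and 255 normalized counts in group 1. It had 452, 1353, 201, 622 and 736 in group 2a, from 148 through a median of 208 to 555 in group 2b, and 258, 2533, 263, 552 and 656 in group 3. The groups overlapped. In the 4 samples with few keratin reads, KRT10 still had 201, 163, 148 and 170, next to 2.22 to 11.2 for KRT14. KRT1, the usual partner of KRT10, was at 0 in 14 of 21 samples, with a highest value of 13.4, and KRT2, a keratin of the upper epidermis, had reads in 1 sample only.

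Among the late genes, IVL (involucrin) and SPINK5, a protease inhibitor of the upper epidermis, were at 0 in each of the 4 samples with few keratin reads. SPINK5 had 179, 55.2, 65.6, 227 and 41.5 normalized counts in group 1 and 30.6, 152, 0, 63.1 and 170 in group 2a. It ran from 0 through a median of 31.7 to 138 in group 2b and had 31.0, 611, 11.6, 75.6 and 152 in group 3. No group was apart from the others. TGM1 and TGM3, which cross-link the cornified envelope, KLK5, a protease that SPINK5 inhibits, GRHL3, a regulator of barrier genes, and DSG3, a basal desmoglein, had 29 reads or fewer in any sample. With KRT1, KRT2, KRT75 and ALOX12B, a lipid enzyme of the barrier, they made up the 9 genes with too few reads to be tested in any of the 3 comparisons between groups. ALOX12B passed the filter only over all 21 samples together.

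The layers were compared by the log2 ratio of summed suprabasal and cornified counts over summed basal counts. Group 1 had a ratio of -0.63 ± 0.76 (SD, n = 5) and group 2a one of -0.63 ± 0.75 (SD, n = 5). Group 2b had -0.90 ± 0.32 (SD, n = 6) and group 3 had -0.59 ± 0.68 (SD, n = 5). For this ratio, differences between the group means were smaller than the SDs within groups. KRT10 and KRT14 had the highest means of their layers over the 21 samples. Without them the mean ratio was -1.09, -1.94, -2.12 and -1.01 in the same order, with SDs of 0.497, 1.41, 0.891 and 0.613. Here the mean of group 2b differed from those of groups 1 and 3 by more than their SDs. The samples overlapped, and the difference was not tested. Within group 2b, ITGA6 (mean 233), DST (221) and KRT5 (196) exceeded KRT14 (156), and within group 2a KRT5 did (370 against 346). In group 2a replicate 3, DST (631) and ITGA6 (180) made up most of the basal sum of 922. There the ratio says little about layers.

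**Figure D3:**
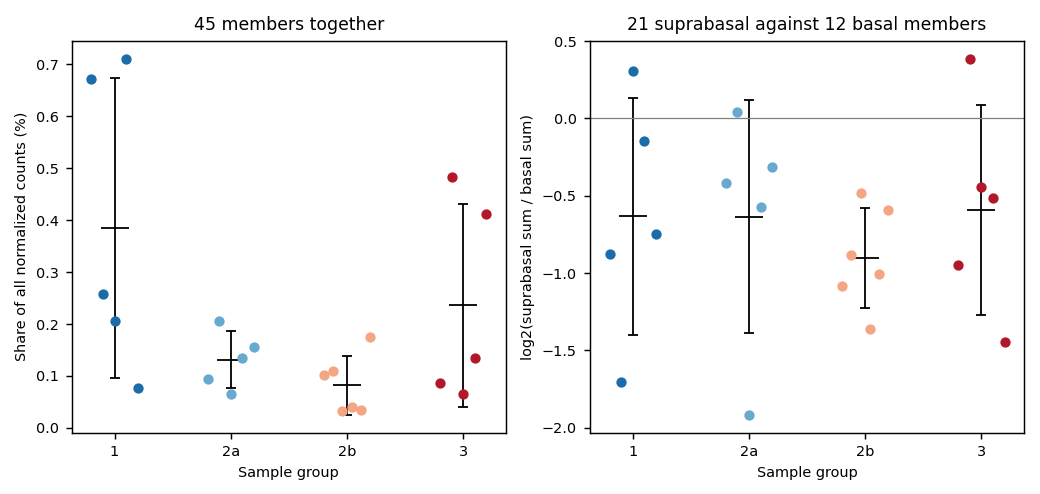
Left, share of all normalized counts in percent taken by the 45 genes, right, log2 ratio of the suprabasal to the basal sum, each point a sample, with bars for the mean ± SD of a group (n = 5, 5, 6 and 5). Group 1 spans 0.0771% to 0.711%, and the ratios of all 4 groups overlap.

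The first comparison asked how tumor cell-rich tissue differs between stages 2 and 1. Of the 45 genes, 36 reached 10 reads in 5 or more of the 10 samples and were tested with edgeR's quasi-likelihood test, and 35 of the 36 fitted values were below 0. A gene was called where its log2 fold change was 1 or more in size and its p, adjusted by Benjamini-Hochberg over all tested genes, did not exceed 0.05. Only PPL was called by edgeR (1 of 36, against 0.607% of all 11200 genes tested), and DESeq2 called 8 (against 2.34%). The median log2 fold change was -1.65, against -0.02 for all tested genes. It was -1.60 for basal and -1.62 for suprabasal genes. An unadjusted p under 0.05 was reached by 22 with lower values in group 2a, where 8.16% of all genes were, and by 1, DST, with higher values, where 9.49% were. Many of the genes rose and fell together over the samples. Counts of genes by sign or by p, here and in the later comparisons, are therefore not counts of independent results.

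PPL (periplakin, chromosome 6, 36790213 to 36834467), a plakin that links the cornified envelope and desmosomes to filaments, had 52.0, 43.1, 54.6, 95.3 and 28.4 normalized counts in group 1. It had 16.7, 21.9, 15.6, 15.2 and 13.6 in group 2a. Every value of group 2a lay below every value of group 1, a pattern that 2.14% of all tested genes shared, and no gene of the 36 lay wholly higher, as 3.51% of all genes did. PPL fell by 1.71 on the log2 scale (SE 0.339, edgeR adjusted p = 0.0439). The call was lost when any 1 of the 10 samples was left out (adjusted p = 0.0517 to 0.108) and with DV200 as a covariate (adjusted p = 0.461, with a log2 fold change of -1.98). DV200 was lower in group 1 with little overlap, so its part and that of the stage could be separated only in part.

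Desmosomal genes had a median log2 fold change of -2.04 over the 11 tested, of which 0 were called by edgeR and 7 had an unadjusted p under 0.05. DSC2, a desmocollin, was at -2.81 (SE 0.736, adjusted p = 0.0855) and DSG1, the desmoglein of upper layers, at -2.80 (SE 0.883, adjusted p = 0.139). JUP (plakoglobin, chromosome 9, 20905422 to 20929851) was at -1.72 (SE 0.46, adjusted p = 0.092). DESeq2 called all 3, with adjusted p-values of 0.00398, 0.0132 and 0.00671.

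JUP had 327, 184, 168, 472 and 119 normalized counts in group 1 and 67.7, 136, 24.4, 93.6 and 62.0 in group 2a. DSP (desmoplakin, chromosome 35, 8773585 to 8819012), which ties the plaque to keratin, had 666, 228, 192, 864 and 56.8 in group 1 and 57.5, 179, 13.3, 117 and 118 in group 2a. In group 2b it ran from 1.06 through a median of 39.9 to 236, and in group 3 it had 85.9, 561, 33.0, 103 and 376. The groups overlapped in both genes through group 1 replicate 5, and in JUP no less through group 2a replicate 2. DSP was at -2.04 (SE 0.773, adjusted p = 0.208), and DSC1, a desmocollin of upper layers, at -2.15 (SE 0.857, adjusted p = 0.219). With any 1 of the other 9 samples left out, 1 or 2 of the 36 genes did not overlap between the groups, where the share of all genes was not counted. Without group 1 replicate 5, 11 lay wholly lower in group 2a (2.99% of all genes), a count that follows from taking out a sample that was low in these genes.

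Keratins had a median log2 fold change of -2.37 over 8 tested, with 0 called by edgeR, 1 by DESeq2 and 6 with an unadjusted p under 0.05. KRT15, a basal keratin also found in hair follicle stem cells, was at -2.56 (SE 0.659, adjusted p = 0.0825), with 13.1 to 127 normalized counts in group 1 and 2.22 to 16.5 in group 2a. KRT16, induced in injured epidermis, ranged from 9.11 to 1082 in group 1 and from 0 to 117 in group 2a, so its fitted value of -2.84 carried a wide error.

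CDH3 (P-cadherin of basal cells) was at -1.90 (SE 0.553, adjusted p = 0.106), the tight junction gene CLDN4 at -1.53 (SE 0.488, adjusted p = 0.134) and GRHL1, a regulator of desmosomal genes, at -1.45 (SE 0.427, adjusted p = 0.109). DESeq2 called these 3 as well. COL17A1, the collagen of hemidesmosomes, had 12 to 247 normalized counts in group 1 and 1.11 to 46.8 in group 2a.

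DST (dystonin), a plakin of hemidesmosomes that other tissues also make in other forms, was the only tested gene of the 36 with a positive value, 0.85 (SE 0.312, adjusted p = 0.184). It had 181, 136, 171, 211 and 153 normalized counts in group 1 and 214, 275, 631, 181 and 226 in group 2a. It ran from 124 through a median of 235 to 294 in group 2b and had 151, 282, 139, 266 and 254 in group 3. The 631 came from group 2a replicate 3, the sample with the fewest KRT14 reads.

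Other cell types gave few calls in this comparison. Of the marker lists, 0 of 8 tested T cell, 0 of 2 B cell, 0 of 11 Langerhans and myeloid, 0 of 8 fibroblast and 0 of 4 smooth muscle genes were called by edgeR. T cell markers summed to 50.1 to 1884 normalized counts in group 1 and 464 to 1539 in group 2a. Fibroblast markers, with COL1A1 and DCN above 0 in every sample, summed to 6782 to 52150 and 10080 to 25660. Their part in the values of the keratinocyte genes was not tested.

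**Figure D4:**
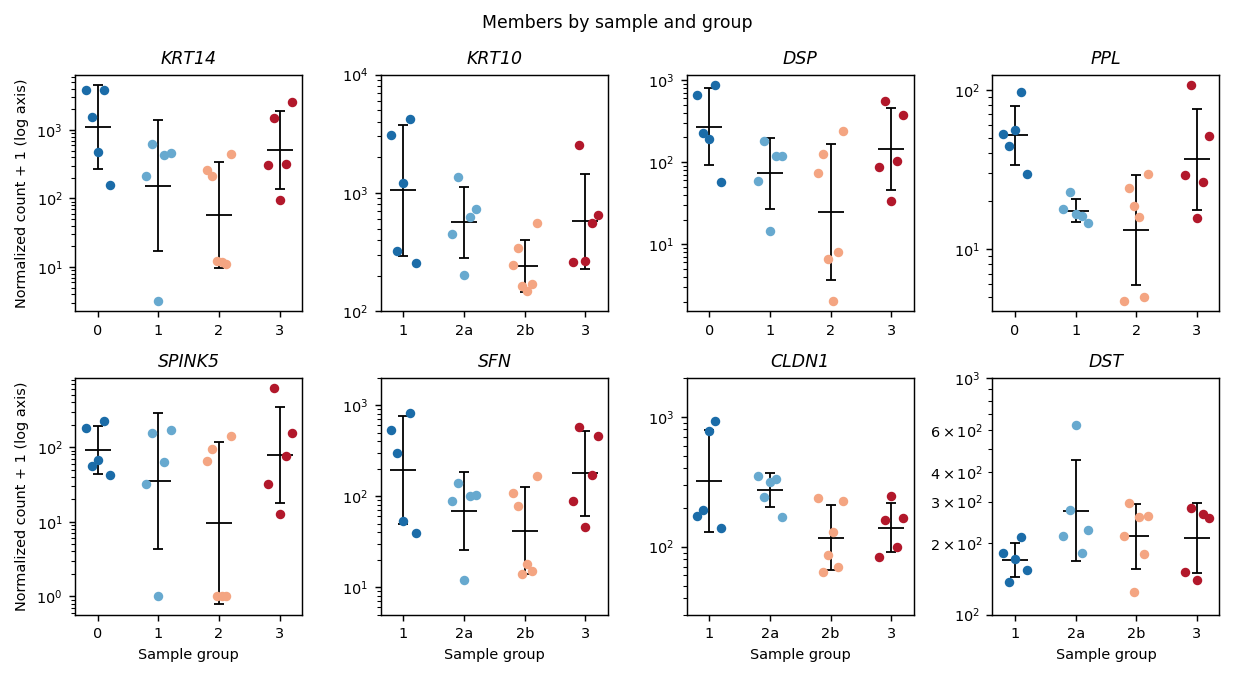
Normalized counts plus 1 (log axis) of 8 genes by sample group, 1 point per sample, with bars for the mean ± SD on the log scale. Each panel shows groups 1, 2a, 2b and 3 from left to right. In the KRT14, DSP, PPL and SPINK5 panels the axis numbers are plain positions and not group names. PPL is the only panel in which group 2a (13.6 to 21.9) lies wholly below group 1 (28.4 to 95.3), and SPINK5 shows 1 sample of group 2a and 3 of group 2b at 0.

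The second comparison set lymphocyte-rich samples of stage 3 against the lymphocyte-rich areas of stage 2. Of the 45 genes, 32 were tested and 30 had a positive fitted value in group 3 against group 2b. None was called by edgeR, where 0.0342% of all 11685 tested genes were, and limma also called 0. DESeq2 called 1, JUP (log2 fold change 1.38, SE 0.412, adjusted p = 0.0465), where 0.377% of all genes were called. The median log2 fold change was 1.60, against 0.01 for all genes, and 10 genes had a higher value with an unadjusted p under 0.05, where 6.91% of all genes did. No gene was lower at that level, where 5.85% were. Of the 10, 8 were suprabasal or cornified and 1 was basal. The difference between the layers was not tested.

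EVPL (envoplakin, chromosome 9, 5492306 to 5510912), the partner of PPL in the cornified envelope, had 3.02 to 8.62 normalized counts in group 2b, with a median of 4.94. It had 17.0, 31.1, 17.5, 11.1 and 17.8 in group 3, wholly above group 2b, as for 1.19% of all genes. No gene lay wholly below group 2b, as 0.924% did. No sample of group 2b had more than 9 reads of EVPL, so it passed the filter only through the 5 samples of group 3. A gene this low in group 2b could be tested only where group 3 lay above it in reads. The lack of overlap in EVPL is therefore no separate result. The log2 fold change of EVPL was 1.75 (SE 0.469, edgeR adjusted p = 0.145).

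IVL had the highest fitted value of the 32, 3.30 (SE 1.14, adjusted p = 0.288). It ranged from 0 through a median of 7.66 to 37.1 normalized counts in group 2b and had 45, 383, 15.5, 61.5 and 225 in group 3. Only group 3 replicate 3 lay within the range of group 2b.

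PPL was at 1.52 (SE 0.557, adjusted p = 0.28), with 28.0, 106, 14.6, 25.2 and 50.3 normalized counts in group 3 and 3.73 through a median of 16.3 to 28.7 in group 2b. JUP was at 1.37 (SE 0.442, edgeR adjusted p = 0.245), with 54.0, 280, 56.3, 68.5 and 229 in group 3 and 34.0 through 53.4 to 69.1 in group 2b. ITGB4, the β4 integrin of hemidesmosomes, was at 1.74 (SE 0.54, adjusted p = 0.214). Each of these overlapped between the groups.

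SFN (stratifin, a cell cycle regulator of keratinocytes) had 533, 299, 52.8, 810 and 38.2 normalized counts in group 1 and 88.1, 138, 11.1, 101 and 102 in group 2a. It had 86.9, 578, 44.6, 169 and 459 normalized counts in group 3 and 13.0 through a median of 46.8 to 167 in group 2b, and was at 2.00 (SE 0.874, adjusted p = 0.383). KRT10 was at 1.64 (SE 0.665, adjusted p = 0.354), KRT77, a suprabasal keratin, at 2.25 (SE 0.948, adjusted p = 0.345) and the plakophilin PKP1 at 1.67 (SE 0.726, adjusted p = 0.375). CLDN4 was at 1.58 (SE 0.709, adjusted p = 0.373) and DSC3, a basal desmocollin, at 1.95 (SE 0.915, adjusted p = 0.408). PKP2 (-0.12) and DST (-0.02) were the 2 genes with a negative fitted value.

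Without group 2b replicates 3, 4 and 5, the median over the 32 genes was 0.93 and 1 gene had an unadjusted p under 0.05. These samples were chosen for their low counts of the same genes, so leaving them out lowers the median by construction. On the other side, group 3 replicates 2 and 5 held the highest value of group 3 for 24 and 12 of 37 genes, and without replicate 2 alone the median was 1.05. T cell markers summed to 3086 to 4715 normalized counts in group 3 and 2708 to 4206 in group 2b, and B cell markers to 289 to 1939 and 1029 to 1745. None of the 10 T cell and 6 B cell genes was called.

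**Figure D5:**
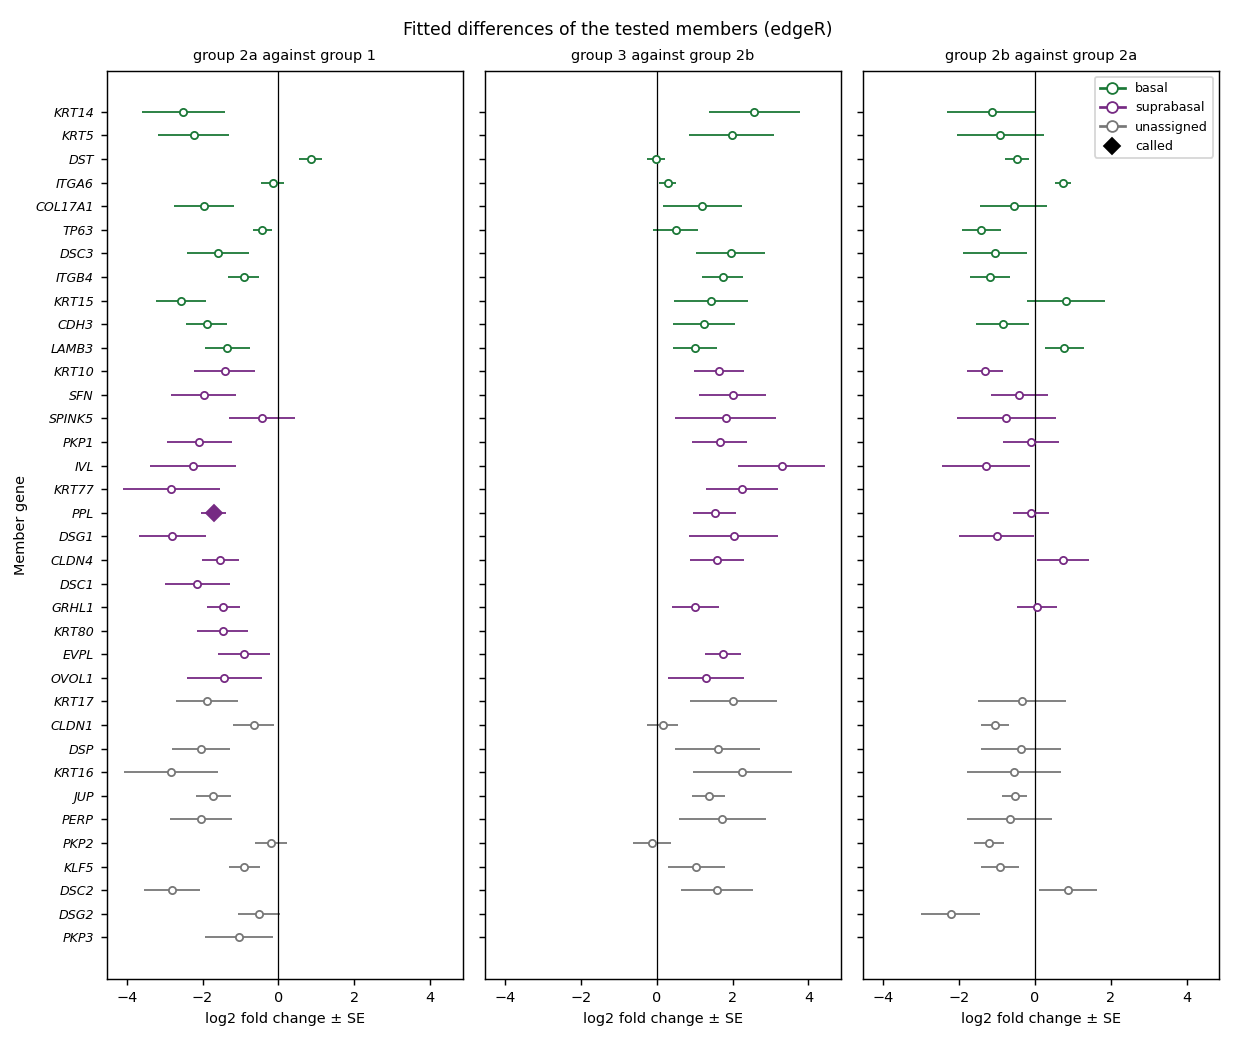
Log2 fold changes ± SE from edgeR for the tested genes in the 3 comparisons, with layers by color and a filled diamond for the called gene. Values lie below 0 for 35 of 36 genes in group 2a against group 1 and above 0 for 30 of 32 in group 3 against group 2b, and PPL carries the only diamond.

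Set side by side, 32 genes were tested in both stage comparisons, which share no sample. Of these, 30 were lower in group 2a than in group 1 and higher in group 3 than in group 2b by their fitted values, of which only that of PPL in group 2a passed edgeR's test. A test of the difference between the 2 changes was chosen after these values had been seen. It called 4 of 37 genes, against 3.82% of all genes, and is described among the results given a closer look. Of the called genes, ALOX12B passed the count filter only through groups 1 and 3, so its call is no separate result.

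The third comparison set the lymphocyte-rich against the tumor cell-rich areas of stage 2. Here 30 of the 45 genes were tested, 24 with a negative and 6 with a positive fitted value, and a median of -0.62 against -0.01 for all genes. None was called by edgeR, where 9.32% of all 11545 genes were, and none by limma. DESeq2 called 5, all lower in group 2b, where it called 11.0% of all genes. Of the 30, 6 were lower with an unadjusted p under 0.05, against 14.7% of all genes, and 1 was higher, against 14.9%. No gene was without overlap, against 4.40% lower and 6.07% higher among all genes.

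ITGA6 differed at an adjusted p of 0.028 (edgeR), with a log2 fold change of 0.74 (SE 0.214) that was under the threshold on size. It had 98.3, 115, 180, 109 and 193 normalized counts in group 2a and ran from 178 through a median of 229 to 309 in group 2b. PKP2, a plakophilin, was at -1.21 (SE 0.395, adjusted p = 0.0502) with 17.8 to 131 in group 2a and 19.1 to 57.0 in group 2b. DSG2, a desmoglein of simple epithelia and of lower epidermis, was at -2.22 (SE 0.783, adjusted p = 0.0687), with 3.87 to 49.0 and 0 to 14.3.

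CLDN1, a tight junction gene (chromosome 34, 22487908 to 22503999), had 351, 239, 313, 330 and 170 normalized counts in group 2a and ran from 62.2 through a median of 107 to 235 in group 2b. Its log2 fold change was -1.06 (SE 0.363, edgeR adjusted p = 0.0671). In group 1 it had 171, 189, 779, 932 and 139, and in group 3 it had 81.9, 159, 245, 98.7 and 166. CLDN1 overlapped between all pairs of groups.

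TP63, the transcription factor that sets up stratified epithelium (chromosome 34, 21951749 to 22170136), had 60.3, 85.4, 37.8, 83 and 47.5 normalized counts in group 2a. It ran from 3.18 through a median of 30.1 to 40.2 in group 2b, and had 71.0 to 110 in group 1 and 9.99 to 57.5 in group 3. Its log2 fold change between groups 2b and 2a was -1.42 (SE 0.513, adjusted p = 0.0784). TP63 varied only 1.54-fold within group 1, where KRT14 varied 25.1-fold.

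KRT10 was at -1.31 (SE 0.482, adjusted p = 0.0913) and ITGB4 at -1.20 (SE 0.527, adjusted p = 0.143). KLF5, a transcription factor of proliferating epithelia, was at -0.91 (SE 0.503, adjusted p = 0.25), JUP at -0.54 (SE 0.333, adjusted p = 0.309) and LAMB3, a laminin chain of the epidermal basement membrane, at 0.78 (SE 0.52, adjusted p = 0.346). The 5 genes that DESeq2 called were CLDN1, DSG2, KRT10, PKP2 and TP63.

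Without the 4 samples with few keratin reads, the median was -0.04, with 13 of 28 genes positive. Then 6 of the 30 genes did not overlap between the groups, KRT15, DSC2, LAMB3 and ITGA6 higher and PKP2 and TP63 lower in group 2b, against 21.7% of all genes in either direction, and ITGA6 was the 1 gene of 28 called by edgeR, which called 588 of all 10681 genes tested there. These samples, too, were chosen for their low counts of the genes described. The immune markers followed the way these areas were chosen, with 9 of 10 T cell and 5 of 6 B cell genes called higher in group 2b. Of the myeloid genes, TYROBP and FLT3 were called lower. None of the tested fibroblast and smooth muscle genes was called, here or between groups 3 and 2b.

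The remaining genes are given by range. KRT17, a keratin of hair follicles and injured skin, had 142 to 1250 normalized counts in group 1, 5.55 to 258 in group 2a, 1.86 to 312 in group 2b and 108 to 888 in group 3. KRT80 reached 49.0 and KRT75, of the hair follicle companion layer, 48.1, both in group 3 replicate 2. PKP3, a plakophilin, was at 0 in 8 samples and had a highest value of 47.2. OVOL1, a regulator of terminal differentiation, was at 0 in 5 and reached 36.8.

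PERP had 60.1 to 439 normalized counts in group 1, 0 to 132 in group 2a, 1.01 to 104 in group 2b and 11.6 to 300.0 in group 3. PKP1, which strengthens desmosomes of upper layers, had 28.4 to 379, 1.11 to 74.0, 5.30 to 97.8 and 38.8 to 289 in the same order. DSG1 had 12 to 173, 0 to 22.9, 0 to 21.08 and 0.97 to 60.7. In all 3 genes the lowest sample of group 1 lay below the highest of each other group.

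GRHL1 had 9.83 to 38.4 normalized counts in group 1, 5.85 to 13.5 in group 2a, 0.934 to 17.7 in group 2b and 5.99 to 55.5 in group 3. KLF5 had 52.8 to 142, 22.2 to 100, 8.49 to 48.0 and 7.76 to 137 in the same order. CDH3 had 6.55 to 75.6, 6.67 to 14.8, 0 to 14.9 and 2.01 to 26.4, and CLDN4 8.74 to 42.5, 4.44 to 15.8, 0 to 32.9 and 13.6 to 99.98. LAMB3 had 4.37 to 29.3, 3.33 to 19.5, 5.02 to 20.2 and 2.91 to 63.2.

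A wider list of 46 other epidermal genes, of which 42 were in the tables, gave values of the same sign. In group 2a against group 1, 20 of 21 tested were negative with a median of -1.61, and in group 3 against group 2b all 22 tested were positive with a median of 1.93, with 0 called by edgeR in either. In group 2b against group 2a, 16 of 17 were negative and 1 was called, ST14 (matriptase, a membrane protease), at -1.86 (SE 0.309, adjusted p = 0.00116). ST14 had an r of only 0.328 with KRT14, and 171 normalized counts in group 2a replicate 3, a sample with few keratin reads. KRT6A, a keratin of injured epidermis, had 2081, 830, 60.1, 2308 and 56.8 normalized counts in group 1 and an r of 0.969 with KRT14. KRTDAP, a differentiation gene, was at 0 in each of the 4 samples with few keratin reads. LY6D reached 1045 normalized counts and CASP14, a caspase of cornifying cells, 1027. In group 2a replicate 3 LY6D was at 0 and CASP14 at 1.11. In group 2b replicates 3, 4 and 5, LY6D had 41.9, 22.3 and 20.1, and CASP14 had 37.2, 138 and 16.1.

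Outside the 45 genes, those most like them in pattern were found by Pearson's r with the mean of the 37 detected genes' z-scores over the 21 samples. The 10 highest were TRIM29 (0.961), LOC100685649 (0.961), CNFN (0.96), S100A14 (0.957), ZNF750 (0.955), ASPRV1 (0.947), LY6G6C (0.945), SERPINB5 (0.944), KRTDAP (0.941) and CALML5 (0.941).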

How the data were processed

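RNA of 21 samples was sequenced with QuantSeq 3′ FWD. Per the labels, the authors used cutadapt, STAR, featureCounts and DESeq2. The settings for strand and for reads matching several genes are not given in the sources used here. What the authors deposited is the raw read count of each gene in every sample together with a signal, the normalized count, equal to the count divided by that sample's size factor (0.855 to 1.27). Both deposited tables hold the same counts. Their columns of fold changes and p-values were not used.

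The 45 members, their layers and the gene lists were chosen with earlier results of these data known. The groups and replicate numbers came from the labels. Nothing ties same-numbered samples to 1 dog. Genes that reached 10 reads in 5 or more samples of a comparison were tested with edgeR 4.0.16 (TMM, robust quasi-likelihood F-test, R 4.3.3), on the samples of that comparison alone, and p-values were adjusted over all tested genes. DESeq2 1.42.0, limma 3.58.1 (on log2 normalized counts with 1 added), other filters and scalings, covariates and leaving out each sample were alternatives. Fits without the samples with few keratin reads, without robust estimation, and of the difference between the stage changes were chosen after seeing the data. On simulated counts with 200 genes changed 4-fold, the test found 152 (stage 2 against 1, tumor cell-rich), 166 (stage 3 against group 2b) and 171 (group 2b against 2a), with 4, 2 and 5 false calls. The changed genes were drawn at random from all tested genes and each gene was simulated independently. These rates therefore do not carry over to the 45 genes, many of which varied widely and together. KRT14, at -2.50 (SE 1.09) in group 2a against group 1, was not called. All members are named. A fold change, SE and adjusted p are given for those called or without overlap and for up to 10 more per comparison with the smallest p. Values by sample are given for called genes and the most abundant gene of each role, with group 2b, of over 5 samples, by its lowest, median and highest value. KRT14, JUP, TP63, ITGA6, EVPL and IVL were added after their values were seen, the last 4 of them with values by sample only in the groups of 1 comparison. A value of 3 reads or fewer was treated as close to 0, which covers counting error only, since no molecular identifiers are named. Samples came from separate tumors. Positions are those of RefSeq for UU_Cfam_GSD_1.0.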

Additional observations from a re-analysis of the deposited data

Results flagged for a closer look

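In group 2a, replicate 3 lay apart from the other 4 samples in KRT14 (2.22 normalized counts) and in SFN (11.1), by the gap to the nearest sample relative to the range of the group. These were 2 of the 44 groups of values looked at in this way, for 11 genes, and chance marks about 1 in 20.

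The change between groups 3 and 2b differed from the change between groups 2a and 1 for 4 of the 37 genes tested, by a term for that difference fitted over all 21 samples (edgeR, 3.82% of 12505 genes called). The difference of the log2 fold changes was 3.24 for PPL (SE 0.71, adjusted p = 0.0124), 3.09 for JUP (SE 0.686, adjusted p = 0.0144), 2.66 for ITGB4 (SE 0.732, adjusted p = 0.0375) and 5.15 for ALOX12B (SE 1.52, adjusted p = 0.0498). ALOX12B reached 2.80 normalized counts in group 2b and its value depends on the prior count. It had at most 4 reads in a sample of group 2a and 3 in group 2b. It thus passed the filter only through groups 1 and 3, where high counts make this difference positive. The call of ALOX12B is therefore no separate result. Of the 37 genes, 36 had a positive difference, with a median of 3.17 against 0.03 for all genes. Without the 4 samples with few keratin reads, 0 of 37 were called by edgeR, with 18 at an unadjusted p under 0.05, and with DV200 as a covariate 0 were called. Calls fell among all genes as well, to 63 of 12286, with 1828 at an unadjusted p under 0.05, and to 74 of 12505.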

How the results depend on the processing

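The genes called in group 2a against group 1 numbered 1 with edgeR, 8 with DESeq2, and 0 with limma, with DV200 as a covariate, with the replicate block, and when any 1 sample was left out (0 to 0). Over all genes the calls went from 68 of 11200 to 262 with DESeq2, 5 with limma, 0 with DV200, 0 with the block and 0 to 100 with 1 sample left out. PPL kept its sign under all 19 alternatives and lost its call in 14. Genes without overlap numbered 1 to 11 with 1 sample left out, the 11 without group 1 replicate 5. In group 3 against group 2b, DESeq2 called 1 against 0, and leaving out 1 sample gave 1 to 3 without overlap. EVPL could not be tested without a sample of group 3. In group 2b against group 2a, 0 genes were called. Some other settings called 1 gene each. PKP2 was called with upper-quartile factors or without robust estimation, and DSG2 in the fit of all 4 groups. ITGB4 was called when only the pooled samples of group 2b were used. ITGA6, higher in group 2b, was called without the samples with few keratin reads or with no threshold on size. The replicate block called 4, DESeq2 5 and fits with 1 sample left out 0 to 2. Over all 11545 genes, edgeR called 1076, the block 905 and DESeq2 1265. Upper-quartile factors called 1071, the fit without robust estimation 1102 and that of all 4 groups 950. With no threshold on size, 1899 passed. The pooled samples gave 880 of 11145, leaving out the samples with few keratin reads 588 of 10681, and leaving out 1 sample 891 to 1154. In that comparison 0 to 2 genes had no overlap with 1 sample left out, and 6 without the samples with few keratin reads. Except without group 1 replicate 5, the share of all genes without overlap was not counted with 1 sample left out. For the difference between the stage changes the 4 calls became 8 without robust estimation, 0 with DV200 or without the samples with few keratin reads, and 2 to 7 with 1 sample left out. Over all genes, 478 calls of 12505 became 496 without robust estimation and 247 to 563 with 1 sample left out. The cause of these changes was not tested. Medians kept their sign, from -1.93 to -0.91 in the first, 0.93 to 2.00 in the second and -1.48 to -0.04 in the third comparison. As a mean of log2(normalized count + 1), the suprabasal to basal ratio was -2.17 for groups 1 and 2a and -2.10 for groups 2b and 3, and without the most abundant gene of each layer it was -1.94 for group 2a and -2.12 for group 2b. Replicate numbers did not pair the samples (correlations of same-numbered deviations from -0.271 to 0.138), and the block is given for its counts only. The SE in group 2a against group 1 was 0.339 for PPL and 0.883 for DSG1.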

Other observations

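Genes of simple epithelium, glands and hair follicles (18 of 21 in the tables) gave 0 calls among the 3, 4 and 2 tested in the 3 comparisons (edgeR). KRT85, a hair keratin, had 189.6 normalized counts in group 3 replicate 2, 143 in group 2b replicate 6, 48.2 in group 3 replicate 5 and 33.0 in group 3 replicate 1, and it was at 0 in 13 samples. KRT75 was highest in the same 4 samples, at 48.1, 32.9, 34.6 and 21. KRT18, a keratin of simple epithelia, had 237.7 in group 2a replicate 3, where KRT14 had 2.22, and 48.8 in the next highest sample. Melanocyte genes were at or near 0, with 4 of 8 in the tables and sums of 0.928 to 14.1 normalized counts.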
